A study of Mus musculus with 30 samples.

Results

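The comparison described here is that of tumours from antibiotic-treated and water-treated mice at 18 h after oxaliplatin, across all measured genes. It rests on 10 of the 30 arrays of the series, 5 with antibiotics and 5 with water, chosen by their labels. EL4 is an established mouse T cell lymphoma line, and oxaliplatin is a platinum drug that forms DNA adducts. Mice of the first group were given an antibiotic cocktail for 3 weeks before 500000 EL4 cells were placed under the skin of the flank, and mice of the second received none and are labelled H2O. At day 7 of tumour growth every mouse was given 10 mg/kg of oxaliplatin into the peritoneum, and tumours were taken at 0, 6 or 18 h. All titles carry the mark WT. The strain, sex and age of the mice and the make-up of the cocktail are not given in the sources used here. All 18 h tumours had received oxaliplatin, so a difference between them is one between drug-treated tumours. Whether the samples are from separate mice is not stated in the labels, and the p-values reflect only how much the samples vary, and technical variation may be part of that. Sample numbers run in blocks by group, so handling order and group cannot be told apart.

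Values are log2 expression, 1 value per gene and array, for 19938 genes. The medians of the 10 arrays at 18 h lay between 7.273 and 7.352, and genes had a median SD of 0.0954 in antibiotic tumours and 0.111 in water tumours. T cell receptor genes were high on all 18 h arrays, with Cd3g between 11.85 and 11.9 in antibiotic tumours and between 11.89 and 12.06 in water tumours. RNA came from whole tumours, in which fewer cells of a type and less RNA per cell cannot be told apart. The threshold for a gene was an adjusted p of 0.05 in limma's moderated test over all genes (Benjamini-Hochberg), and differences are antibiotics minus water with the SE of the model.

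Several stress and growth programmes are named below. The integrated stress response starts when a kinase senses a lack of amino acids or another strain and phosphorylates the initiation factor eIF2. Translation of the factor ATF4 then rises, and ATF4 switches on genes of amino acid import, amino acid synthesis and tRNA charging. Sterol synthesis is governed by the SREBP factors, which INSIG proteins hold in the endoplasmic reticulum when sterols are plentiful. DNA damage of the kind that platinum drugs cause activates p53, which drives genes of cell cycle arrest, death and its own removal. Macrophages are common host cells of tumours and carry genes of phagocytosis, lysosomal digestion and oxidant production.

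At 18 h tumours of antibiotic-treated mice had higher levels of many genes of amino acid transport, tRNA charging, sterol synthesis and ribosome assembly, and lower levels of some p53 target, phagocytosis and macrophage genes. In all 1566 genes passed, which is 7.85% of those tested. Of these 901 were higher in antibiotic tumours (4.52%) and 665 were lower (3.34%). These are the shares of all genes against which the counts of list members below are to be read. Most differences were small: 35 genes (0.176%) passed with at least 1.5-fold, 10 higher and 25 lower. The median difference over all genes was -0.0059 on the log2 scale, and 47.5% of all genes had a difference above 0. For 1435 genes (7.2%) the groups of 5 did not overlap, 944 with antibiotics higher (4.73%) and 491 with antibiotics lower (2.46%). The count of 1566 fell to 771 without antibiotic array 1, 995 without antibiotic array 4, 941 without water array 1 and 926 without water array 3.

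**Figure D1:**
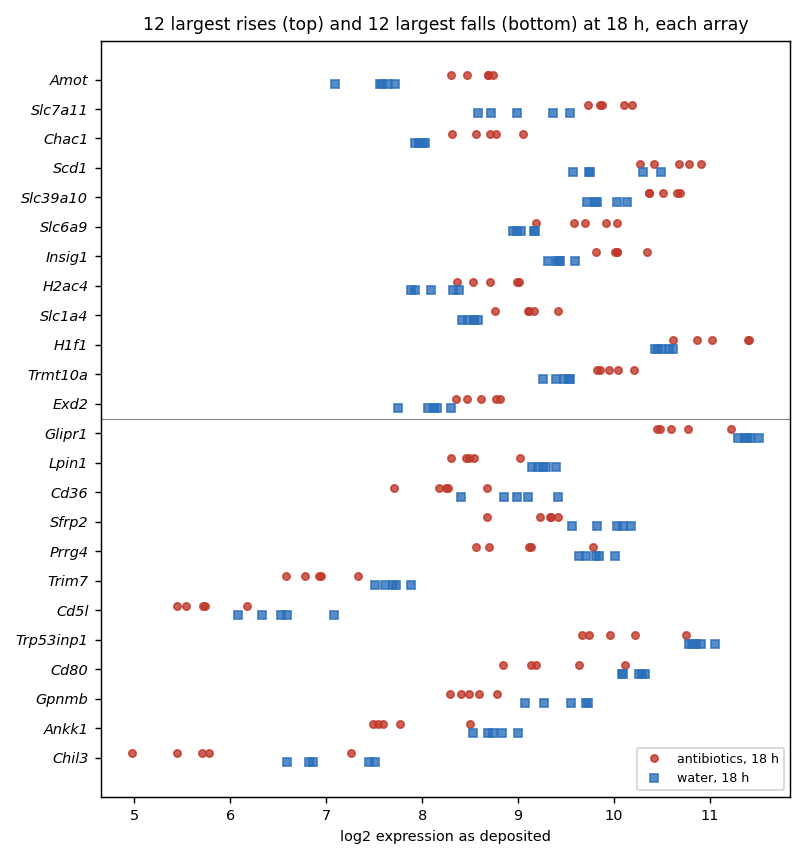
Log2 expression of the 12 genes with the largest rise and the 12 with the largest fall among named genes that passed at 18 h, with 1 point per array (antibiotics circles above, water squares below). Amot led the rises with a difference of 1.06 and Chil3 the falls with -1.21, and antibiotic array 5 lay near the water arrays for Trp53inp1 (10.75) and Cd80 (10.11).

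Genes of the integrated stress response were higher in antibiotic tumours. Of 31 members measured, 16 rose and 1 fell at 18 h, and the median difference was 0.203, against -0.0059 over all genes. Promoter sequences of 4 risen members are shown because they hold a match to the core of the amino acid response element, the site through which ATF4 and its partners act. The letters searched were TGATGNAA on both strands, in the 250 bases before and 50 after the gene start, from RefSeq on GRCm38.p6. Capitals mark the matches. Slc7a11 lies at chr3:50443564-50443863 on the minus strand, Chac1 at chr2:119350992-119351291 on the plus strand, Slc1a4 at chr11:20332664-20332963 on the minus strand and Asns at chr6:7693160-7693459 on the minus strand.
Slc7a11: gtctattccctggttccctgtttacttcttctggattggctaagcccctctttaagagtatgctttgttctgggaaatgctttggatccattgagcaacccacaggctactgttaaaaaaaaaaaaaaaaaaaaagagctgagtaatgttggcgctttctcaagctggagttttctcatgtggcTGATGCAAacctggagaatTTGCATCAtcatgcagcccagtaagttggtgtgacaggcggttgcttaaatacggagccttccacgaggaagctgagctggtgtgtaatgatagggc
Chac1: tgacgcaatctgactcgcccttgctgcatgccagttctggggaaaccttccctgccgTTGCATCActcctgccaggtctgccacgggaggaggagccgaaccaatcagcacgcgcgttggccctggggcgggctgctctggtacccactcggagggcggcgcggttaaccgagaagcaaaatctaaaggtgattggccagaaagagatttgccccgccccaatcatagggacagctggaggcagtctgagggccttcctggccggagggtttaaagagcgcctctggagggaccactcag
Slc1a4: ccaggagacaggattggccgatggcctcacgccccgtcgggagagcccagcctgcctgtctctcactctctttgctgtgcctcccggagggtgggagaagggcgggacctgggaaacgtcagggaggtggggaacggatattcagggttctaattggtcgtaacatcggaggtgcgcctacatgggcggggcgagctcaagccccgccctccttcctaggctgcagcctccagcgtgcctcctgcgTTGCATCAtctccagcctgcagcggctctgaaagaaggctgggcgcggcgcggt
Asns: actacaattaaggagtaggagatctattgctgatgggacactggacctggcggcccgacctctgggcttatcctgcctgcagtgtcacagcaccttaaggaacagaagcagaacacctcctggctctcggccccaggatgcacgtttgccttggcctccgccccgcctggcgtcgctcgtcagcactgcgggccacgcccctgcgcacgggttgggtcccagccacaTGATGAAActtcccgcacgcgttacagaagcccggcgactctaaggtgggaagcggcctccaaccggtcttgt
The Slc7a11 window holds 2 matches, which start at -66 and -47 from the gene start. Among members of the list with a promoter sequence, 9 of 27 hold the letters, as do 4 of 15 of those that rose, against 4.51% of all 27025 genes with a promoter. A match is a description of the sequence and says nothing of binding in these tumours.

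Slc7a11 encodes the cystine importer that supplies glutathione synthesis. Its log2 level was 9.87, 10.1, 10.19, 9.85 and 9.73 on antibiotic arrays 1 to 5, against 8.58, 9.54, 8.72, 8.99 and 9.36 on water arrays 1 to 5. Every antibiotic array lay above every water array, and water arrays 2 and 5 were the nearest. The difference was 0.9 ± 0.21 (1.87-fold, adjusted p = 0.0077, limma). Chac1, which degrades glutathione, was at 8.56, 8.71, 8.77, 9.05 and 8.31 in antibiotic tumours and at 8.01, 7.97, 8.03, 7.93 and 7.98 in water tumours. The water arrays lay within a narrow band and all antibiotic arrays above it. Its difference was 0.7 ± 0.17 (1.62-fold, adjusted p = 0.0101, limma).

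Neutral amino acid carriers moved alike. Slc1a4, a carrier of serine and alanine, was at 9.17, 9.11, 9.1, 9.41 and 8.76 in antibiotic tumours, against 8.58, 8.48, 8.54, 8.54 and 8.41 in water tumours, with no overlap. The difference was 0.6 ± 0.097 (adjusted p = 0.000588, limma). The glycine carrier Slc6a9 ranged from 9.19 to 10.03 with antibiotics and from 8.95 to 9.18 with water and rose by 0.62 ± 0.13. Antibiotic array 5 was the lowest of its group for Chac1, Slc1a4 and Slc6a9. The carriers Slc7a5 and Slc7a1, which import large neutral and basic amino acids, each rose by 0.3.

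Atf4, the transcription factor of this response, was at 9.54, 9.53, 9.5, 9.63 and 9.32 in antibiotic tumours and at 9.27, 9.17, 9.29, 9.2 and 9.25 in water tumours. The groups were apart by little, yet the spread within them was smaller still. The difference was 0.27 ± 0.044 (1.21-fold, adjusted p = 0.000588, limma). Enzymes of serine and one-carbon metabolism rose with it, Mthfd2 by 0.45 ± 0.082, Shmt2 by 0.3 and Psph by 0.29. Asns, the asparagine synthetase, stood at 12.86 ± 0.066 in antibiotic tumours and 12.69 ± 0.045 in water tumours (SD, n = 5 each) and rose by 0.17 ± 0.042. Ddit3, which encodes the factor CHOP, rose by 0.33 ± 0.086, but the call was lost without antibiotic array 2 or 4 or water array 3. The pseudokinase gene Trib3 had a difference of 0.44 ± 0.15 that did not pass (adjusted p = 0.0599, limma).

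The 1 member that fell was Sesn2, which encodes a leucine sensor that restrains mTORC1 and is also a p53 target. It was at 9.31, 9.33, 9.58, 9.53 and 9.91 in antibiotic tumours, against 10.11, 10.07, 10.26, 10.21 and 9.88 in water tumours. Only antibiotic array 5 and water array 5 met. The difference was -0.57 ± 0.16 (adjusted p = 0.022, limma), and it did not pass without antibiotic array 1 or 2 or water array 3. The number of members that rose was 10 without antibiotic array 1. Of 23 genes of the unfolded protein response, a neighbouring stress pathway of the endoplasmic reticulum, 0 passed in either direction by limma, the median was 0.087 and the chaperone Hspa5 had a difference of 0.13 ± 0.053.

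Cytosolic aminoacyl tRNA synthetases, which load tRNAs with their amino acids, rose in 10 of 18 cases and fell in 0, with a median of 0.212. Cars, for cysteine, was at 10.04, 9.86, 9.96, 10.15 and 9.66 with antibiotics and at 9.59, 9.61, 9.58, 9.53 and 9.59 with water. All antibiotic arrays were above all water arrays, and the difference was 0.36 ± 0.063 (adjusted p = 0.00106, limma). Iars, for isoleucine, rose by 0.31 ± 0.051, and a second row of the table for the same symbol gave 0.23. Lars and Tars, for leucine and threonine, each rose by 0.36, and Yars, for tyrosine, by 0.28. Promoter sequences were at hand for 11 of the 18. The response element letters were present in 4 of these 11, those of Iars, Yars, Gars and Tars, against 4.51% of all genes with a promoter. No single array left out moved the count outside 10 to 11.

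Genes of cholesterol synthesis rose in 11 of 20 cases and fell in 0, and their median of 0.248 was above that of the stress response list. The promoter of Hmgcs1, the enzyme that makes HMG-CoA, is shown because it holds a match to the sterol response element (letters TCACNCCAC on both strands, in capitals). It lies at chr13:119690101-119690400 on the plus strand of GRCm38.p6.
Hmgcs1: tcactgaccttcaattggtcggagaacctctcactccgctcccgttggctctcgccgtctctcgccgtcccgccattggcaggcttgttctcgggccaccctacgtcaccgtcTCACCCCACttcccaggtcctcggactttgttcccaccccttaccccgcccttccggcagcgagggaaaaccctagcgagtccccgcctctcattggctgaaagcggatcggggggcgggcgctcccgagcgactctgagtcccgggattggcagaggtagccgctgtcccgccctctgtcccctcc
The match starts at -137 from the gene start, and it is the 1 match among 16 list members with a promoter, against 1.44% of all genes.

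Insig1, which retains SREBP in the endoplasmic reticulum and is itself a target of it, was at 10.34, 9.81, 10.03, 10.03 and 10.01 in antibiotic tumours. In water tumours it was at 9.44, 9.43, 9.31, 9.4 and 9.59. The lowest antibiotic array was above the highest water array, and the difference was 0.61 ± 0.085 (1.53-fold, adjusted p = 0.000186, limma). Hmgcs1 was at 10.03, 9.69, 9.87, 9.9 and 9.88 with antibiotics and at 9.26, 9.54, 9.34, 9.46 and 9.69 with water. Antibiotic array 2 and water array 5 met at 9.69 and no arrays crossed. It rose by 0.42 ± 0.079 (adjusted p = 0.00184, limma).

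Later steps of the pathway rose too. Idi1, the isopentenyl diphosphate isomerase, rose by 0.51 ± 0.12, and Cyp51, which demethylates lanosterol, by 0.48 ± 0.085. Lss, the lanosterol synthase, and Msmo1, a sterol oxidase, each rose by 0.43. Sqle, Dhcr7, Sc5d, Hsd17b7 and the sterol carrier Stard4 rose by 0.24 to 0.28. Srebf2, the gene of the factor itself, had a difference of 0.12 ± 0.051 that did not pass (adjusted p = 0.177, limma). The count lay between 9 and 13 whichever 18 h array was left out. Of 13 fatty acid synthesis genes 5 rose and 1 fell, and the largest rise was that of the desaturase Scd1. Scd1 was at 10.78, 10.27, 10.68, 10.91 and 10.42 with antibiotics, against 9.57, 10.49, 9.74, 9.75 and 10.3 with water, so water arrays 2 and 5 fell among the antibiotic arrays. Its difference of 0.64 ± 0.18 passed (adjusted p = 0.0248, limma), and did not pass without antibiotic array 1 or 4 or water array 1, 3 or 4. The count of risen fatty acid genes was 2 without water array 1 and 1 without water array 3 or 4 or antibiotic array 1 or 4. The fall in that list was lost without antibiotic array 1, 2, 3 or 4 or water array 2, 3 or 4.

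**Figure D2:**
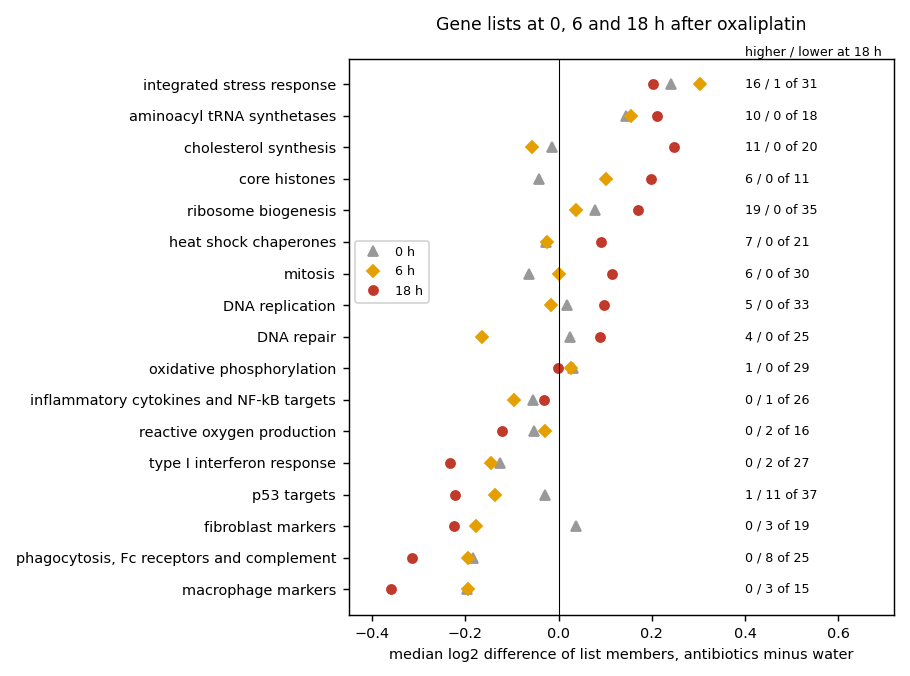
Median log2 difference, antibiotics minus water, of the members of 17 gene lists at 0, 6 and 18 h, with the number of members higher and lower at 18 h at the right. Cholesterol synthesis reached 0.248 at 18 h and lay at -0.015 at 0 h and -0.057 at 6 h, while integrated stress response members lay above 0 at all times.

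Of 35 ribosome biogenesis genes 19 rose and 0 fell, with a median of 0.17, against 4.52% of all genes higher. With antibiotics higher, 15 members were without overlap, against 4.73% of all genes. The nucleolar protein gene Nop58 was at 11.27, 11.19, 11.15, 11.23 and 11.08 in antibiotic tumours and at 10.77, 10.94, 10.8, 10.93 and 10.96 in water tumours. The difference, 0.31 ± 0.058, was small and held on every array (adjusted p = 0.00196, limma). Gnl3, Wdr43 and Wdr75, further nucleolar factors, each rose by 0.22. The number risen was 8 to 27 over the alternative settings, and 11 without antibiotic array 1. Of 20 genes in the list of Myc and its targets 7 rose and 1 fell, against 4.52% and 3.34% of all genes. Myc itself did not pass. The cap-binding factor Eif4e rose by 0.26 on the row used, and its other rows gave 0.28 and 0. In this list 3 rose without antibiotic array 1 and 4 without water array 1. The fall in that list was lost without antibiotic array 1, 2, 3 or 4 or water array 3 or 4.

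Heat shock chaperones rose in 7 of 21 cases, against 4.52% of all genes, and fell in 0, with a median of 0.09. The number risen was 3 to 11 over the alternative settings. Hsph1, an exchange factor for HSP70, was at 10.96, 10.88, 10.91, 11.01 and 10.67 with antibiotics and at 10.32, 10.62, 10.41, 10.55 and 10.54 with water. The groups did not overlap, and the difference was 0.4 ± 0.061 (adjusted p = 0.000464, limma). The co-chaperone Ptges3 rose by 0.27, and its 2 other rows gave 0.3 and 0.29. The heat shock letters GAANNTTC were present in 10 of 18 promoters of the list and in 2 of 6 of risen members, against 9.04% of all genes.

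Cell cycle genes shifted upward by less. DNA replication genes rose in 5 of 33 cases, mitosis genes in 6 of 30 and DNA repair genes in 4 of 25. Of all genes 4.52% rose, and 0 fell in each of these lists. Chek1, the checkpoint kinase gene, was at 10.81, 10.71, 10.74, 10.84 and 10.59 in antibiotic tumours, against 10.35, 10.4, 10.44, 10.46 and 10.39 in water tumours. All antibiotic arrays exceeded all water arrays, by 0.33 ± 0.071 on average (adjusted p = 0.00439, limma). Cdc6, which loads the replicative helicase, rose by 0.28, Orc1 by 0.25 and Rad51c, a recombination gene, by 0.32. The replication count was 3 without water array 1 or 3 or antibiotic array 1 or 4. The repair count was 2 without water array 1 or 3 or antibiotic array 1, 2 or 4. The mitosis count was 1 without water array 1 or antibiotic array 1 and 3 without water array 3 or antibiotic array 4.

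Histone genes rose in 6 of 11 cases. The number risen was 1 to 6 over the alternative settings, and 4 without antibiotic array 1. H2ac4 was at 9.01, 8.71, 8.36, 8.99 and 8.53 with antibiotics and at 7.93, 8.09, 7.88, 8.38 and 8.32 with water. Antibiotic array 3 fell just below water array 4. The difference was 0.6 ± 0.12 (adjusted p = 0.00299, limma), and the linker histone gene H1f1 rose by 0.54 ± 0.11. Probes of 1 histone gene may read its near-identical copies, so these members are uncertain as single genes. Few genes passed for oxidative phosphorylation (1 of 29 higher), the proteasome (2 of 23 higher) and hypoxia and glycolysis (1 of 30 higher), against 4.52% of all genes higher, with 0 lower in each. These counts were all 0 without antibiotic array 1 or 4 or water array 1, 3 or 5, and other arrays left out moved some of them too.

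Targets of p53 were lower in antibiotic tumours. Of 37 members 11 fell and 1 rose, the median was -0.223, and 32 of the 37 differences were below 0. Trp53inp1, which promotes p53-dependent death and autophagy, was at 9.74, 9.96, 10.22, 9.66 and 10.75 in antibiotic tumours, against 10.78, 10.81, 10.9, 11.05 and 10.85 in water tumours. Array 5 of the antibiotic group stood next to the water arrays, and the other 4 lay well below. The difference was -0.81 ± 0.18 (1.75-fold, adjusted p = 0.00684, limma). Fas, the death receptor, was at 7.44, 8.03, 7.89, 7.64 and 8.53 with antibiotics and at 8.33, 8.63, 8.44, 8.86 and 8.53 with water. Antibiotic array 5 was again within the water range, and the difference was -0.65 ± 0.15 (adjusted p = 0.00648, limma).

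Mdm2, the ligase gene through which p53 limits itself, was at 10.79, 10.9, 10.91, 10.84 and 11.27 with antibiotics and at 11.18, 11.23, 11.34, 11.28 and 11.3 with water. It fell by 0.33 ± 0.076, with antibiotic array 5 apart from the rest of its group. Phlda3, a p53 target that inhibits AKT, was at 7.4, 7.7, 7.64, 7.51 and 7.75 in antibiotic tumours and at 8.22, 8.12, 8.14, 8.24 and 7.9 in water tumours. For this gene the groups did not overlap and antibiotic array 5 did not stand apart, and the difference was -0.53 ± 0.098 (adjusted p = 0.00165, limma). Ei24 fell by 0.37 ± 0.071, Btg2, an antiproliferative gene, by 0.42 ± 0.11, and Ak1 by 0.53 ± 0.13. The Btg2 call was lost in 6 of 19 alternative settings. The costimulatory ligand gene Cd80 was at 8.84, 9.19, 9.63, 9.13 and 10.11 with antibiotics, against 10.09, 10.08, 10.26, 10.32 and 10.29 with water. It fell by 0.83 ± 0.17, and a second row gave -0.8. Rrm2b, a p53-induced subunit of ribonucleotide reductase, was the member that rose (0.23 ± 0.071), a call lost without antibiotic array 1, 2, 4 or 5 or water array 1, 3, 4 or 5.

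The p53 list mean per array, set against its average over the 30 arrays, ranged from -0.12 to 0.22 in antibiotic tumours and from 0.2 to 0.32 in water tumours. The highest antibiotic value was on array 5 (0.215), and water arrays 1 to 5 were at 0.199, 0.262, 0.281, 0.323 and 0.234. Without antibiotic array 5 the number of members that fell was 17. It was 3 when antibiotic array 1 and water array 4 were left out together, and the calls of Trp53inp1, Fas and Mdm2 were lost there. Of 14 genes of the Bcl2 family of death regulators, 0 rose and 1 fell, against 3.34% of all genes lower. The 1 was Bcl2l11 (-0.25), a call lost without antibiotic array 1, 3 or 4 or water array 1, 3, 4 or 5.

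Genes of phagocytosis, Fc receptors and complement fell in 8 of 25 cases, against 3.34% of all genes, and rose in 0. All 25 differences were below 0 with a median of -0.315. C1qb, a chain of complement C1q made by macrophages, was at 10.65, 11.06, 10.81, 10.94 and 10.62 in antibiotic tumours, against 11.2, 11.34, 11.26, 11.5 and 11.31 in water tumours. The groups did not overlap, and the difference was -0.51 ± 0.11 (adjusted p = 0.00476, limma). Cd36, a scavenger receptor for lipids, was at 7.71, 8.17, 8.27, 8.25 and 8.67 with antibiotics and at 8.85, 8.4, 8.99, 9.1 and 9.41 with water. Here antibiotic array 5 exceeded water array 2, and the difference was -0.73 ± 0.19 (adjusted p = 0.0169, limma), a call lost without antibiotic array 1. The apoptotic cell receptor gene Mertk fell by 0.57 ± 0.16, the lipid receptor gene Trem2 by 0.31 ± 0.068 and the Fc receptor chain Fcer1g by 0.4 ± 0.094.

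Of 15 macrophage markers 3 fell and 0 rose, and all 15 differences were below 0 with a median of -0.359. Cd68, a lysosomal protein of macrophages, was at 9.83, 10.07, 9.89, 10.11 and 10 in antibiotic tumours and at 10.55, 10.25, 10.55, 10.6 and 10.6 in water tumours. No antibiotic array reached the lowest water array, and the difference was -0.53 ± 0.1 (adjusted p = 0.00197, limma). Spi1, the myeloid transcription factor PU.1, fell by 0.5 ± 0.13, and Ms4a7 by 0.43 ± 0.13. The Ms4a7 call was lost in 8 of 19 alternative settings and that of Spi1 in 3. The defining markers Adgre1 (-0.36 ± 0.16, adjusted p = 0.194) and Csf1r (-0.26 ± 0.14, adjusted p = 0.326) did not pass by limma. The list mean ranged from -0.39 to 0.17 in antibiotic tumours and from 0.11 to 0.45 in water tumours. Antibiotic array 1 was the lowest and water arrays 4 and 5 the highest. Without antibiotic array 1 the phagocytosis count was 4 and the macrophage count 1.

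Single genes tied to macrophages had some of the largest falls. Gpnmb, a glycoprotein of lipid-laden macrophages, was at 8.4, 8.29, 8.49, 8.59 and 8.78 with antibiotics, against 9.71, 9.07, 9.27, 9.73 and 9.55 with water. The groups were well apart, and the difference was -0.96 ± 0.16 (1.94-fold, adjusted p = 0.000843, limma). Lgals3, a galectin abundant in macrophages, had the smallest p of all genes and was picked for that. It was at 10.24, 10.39, 10.32, 10.44 and 10.52 in antibiotic tumours and at 11.08, 10.85, 10.97, 11.26 and 11.15 in water tumours. Its difference was -0.68 ± 0.073 (1.6-fold, adjusted p = 1.08e-05, limma). Chil3, a chitinase-like protein of alternatively activated macrophages, was at 5.78, 5.71, 5.44, 4.98 and 7.26 with antibiotics and at 7.45, 7.51, 6.59, 6.82 and 6.86 with water. Antibiotic array 5 was far above its group, and the difference of -1.21 ± 0.31 (adjusted p = 0.0142, limma) was lost without antibiotic array 4. Cd5l, an apoptosis inhibitor of macrophages, fell by 0.8 ± 0.17.

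**Figure D3:**
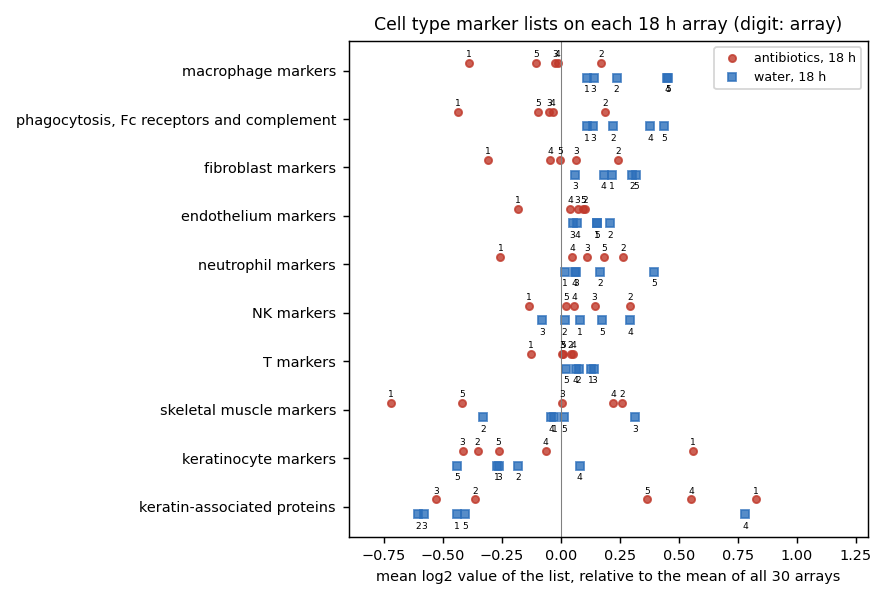
Mean log2 value of each marker list on each 18 h array, set against the average over 30 arrays, for antibiotic tumours (circles, above) and water tumours (squares, below), with the array number at each point. Antibiotic array 1 was the lowest for macrophage (-0.39), phagocytosis (-0.44) and fibroblast (-0.31) markers, and keratin-associated protein genes were high on antibiotic arrays 1, 4 and 5 and on water array 4.

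Markers of other cells of the tumour and its surroundings were read beside these. Fibroblast markers fell in 3 of 19 cases, led by the matrix protease Mmp2 (-0.58 ± 0.15), and their list mean ranged from -0.31 to 0.24 in antibiotic tumours and from 0.06 to 0.32 in water tumours. That count was 0 without antibiotic array 1 or water array 1, 1 without antibiotic array 4 and 5 without antibiotic array 2. All 19 fibroblast differences were below 0, as were all 15 of the macrophage markers, and their median was -0.225. Of 18 neutrophil, 12 NK cell, 18 endothelial, 18 skeletal muscle and 14 keratinocyte markers 0 passed in either direction by limma. Differences below 0 numbered 16, 8, 15, 16 and 4 in that order. The medians were -0.072, -0.037, -0.12, -0.116 and 0.046. The muscle list mean ranged from -0.72 to 0.26 with antibiotics and from -0.33 to 0.31 with water, while the keratinocyte mean ranged from -0.42 to 0.56 with antibiotics and from -0.44 to 0.08 with water. The 44 keratin-associated protein genes, of hair, ranged in mean from -0.53 to 0.83 with antibiotics and from -0.61 to 0.78 with water. Mast cell and eosinophil markers fell in 3 of 15 cases, and in 1 without antibiotic array 1. T cell markers also mark the EL4 lymphoma cells themselves, so they do not separate host T cells from tumour cells. They fell in 2 of 17 cases, Cd4 (-0.31) and Cd3d (-0.19). That count was 0 without antibiotic array 1 or water array 1 or 3 and 1 without antibiotic array 3 or water array 4. B cell and plasma cell markers fell in 1 of 12 cases, dendritic cell markers in 1 of 12, alternatively activated macrophage markers in 1 of 13 and adipocyte markers in 2 of 11, and 0 rose. These are counts of 1 or 2 genes, and 3.34% of all genes fell. The adipocyte count was 0 without antibiotic array 1 or 3 or water array 3 or 4 and 1 without antibiotic array 2, and that of alternatively activated macrophages, from Chil3, was 0 without antibiotic array 4. Of these 13 alternatively activated macrophage markers 12 had differences below 0, with a median of -0.35. Their list mean ranged from -0.3 to -0.04 with antibiotics and from 0.13 to 0.5 with water. With antibiotic array 1 and water array 4 left out, the arrays with the highest hair genes, 561 genes passed, 366 higher and 195 lower. The part of these cells in the gene differences was not tested.

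Genes of oxidant production and inflammation, which bear on how myeloid cells meet a platinum drug, mostly did not pass. Of 16 genes of reactive oxygen production 2 fell, against 3.34% of all genes, both subunit genes of the NADPH oxidase of phagocytes, Cyba and Ncf4. Differences were below 0 for 14 of the 16, with a median of -0.122. The list mean ranged from -0.13 to 0.01 in antibiotic tumours and from 0.13 to 0.17 in water tumours. Cyba was at 10.4, 10.45, 10.32, 10.37 and 10.54 in antibiotic tumours, against 10.65, 10.68, 10.64, 10.79 and 10.69 in water tumours. The groups did not overlap, and the difference was -0.28 ± 0.055 (adjusted p = 0.0026, limma). Ncf4 fell by 0.29 ± 0.062, also without overlap. The catalytic subunit gene Cybb differed by -0.33 ± 0.23 (adjusted p = 0.481, limma), and Nos2, the inducible nitric oxide synthase, by -0.21 ± 0.29 (adjusted p = 0.803, limma).

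Of 26 inflammatory cytokine and NF-kB target genes 0 rose and 1 fell, the adhesion molecule Icam1 (-0.32 ± 0.065), and 2 fell without antibiotic array 2 or water array 1. A fall in 1 of 26 is near the share of all genes that fell (3.34%), and 15 of the 26 differences were below 0. Tnf differed by -0.13 ± 0.064 (adjusted p = 0.259, limma) and Il1b by 0.03 ± 0.24 (adjusted p = 0.98, limma). The monocyte chemokine gene Ccl2 was at 9.3, 9.96, 9.85, 9.55 and 9.98 in antibiotic tumours, against 10.33, 10.13, 10.18, 10.55 and 10.46 in water tumours. The groups did not overlap, and the difference was -0.6 ± 0.16 (adjusted p = 0.0178, limma), a call lost without antibiotic array 1 or 4. Ccl7, Ccl9 and Ccl12 also fell, which made 4 of 30 chemokine ligands, against 3.34% of all genes. That number was 1 without antibiotic array 1 or 4, and 2 without antibiotic array 3 or water array 1, 3 or 4. Of the 30 chemokine ligand differences 27 were below 0, with a median of -0.199. The chemokine list mean ranged from -0.4 to 0.38 in antibiotic tumours and from 0.11 to 0.53 in water tumours. Bacterial sensing genes fell in 1 of 31 cases, the inflammasome adaptor Pycard (-0.26), which is near the share of all genes that fell (3.34%). Tlr4, the endotoxin receptor, was among those that did not pass. Of the 31 differences 27 were below 0, with a median of -0.116. The bacterial sensing list mean ranged from -0.3 to 0.21 in antibiotic tumours and from -0.04 to 0.36 in water tumours. Without antibiotic array 5 the number of bacterial sensing genes that fell was 4.

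Interferon and antigen presentation genes mostly lay below 0, and those that passed fell, against 3.34% of all genes lower. Type I interferon genes fell in 2 of 27 cases and interferon gamma genes in 1 of 15. MHC class I genes fell in 3 of 14 and MHC class II genes in 1 of 10, and 0 rose in each list. Differences below 0 numbered 25 of 27, 15 of 15, 11 of 14 and 9 of 10 in that order. Of all genes 47.5% were above 0. The medians were -0.232, -0.168, -0.078 and -0.334. List means overlapped between the groups. The type I interferon mean ranged from -0.43 to 0.48 with antibiotics and from 0.01 to 0.55 with water. The interferon gamma mean ranged from -0.54 to 0.93 and from -0.35 to 0.99, the class I mean from -0.1 to 0.14 and from -0.01 to 0.21. That of class II ranged from -0.44 to 0.33 and from 0.09 to 0.35. Antibiotic array 1 was the lowest each time in its group. Over the alternative settings the type I interferon median was -0.317 to -0.024. The interferon gamma median was -0.377 to 0.18 over these settings, and its count was 0 without antibiotic array 1. The type I interferon count was 1 without antibiotic array 1 or 4 or water array 4, and the class II count was 0 without antibiotic array 1, 3 or 4 or water array 2 or 4 and 2 without antibiotic array 2. Bst2, the antiviral protein tetherin, was at 9.92, 10.04, 10.07, 10.02 and 10.11 with antibiotics and at 10.49, 10.3, 10.41, 10.34 and 10.29 with water. Every antibiotic array was below every water array, and the gene fell by 0.33 ± 0.046 (adjusted p = 0.000186, limma). The MHC class I count was 1 without water array 1 or antibiotic array 4 and 0 without antibiotic array 1. Checkpoint and costimulation genes fell in 4 of 22 cases, Cd80 above and Tnfrsf18 (-0.52), Tnfsf4 (-0.45) and Btla (-0.39). Without water array 3 or antibiotic array 2 that number was 2. The Tnfsf4 call was lost in 13 and the Btla call in 5 of 19 alternative settings, and those of Cd80 and Tnfrsf18 in 0. Of 14 cytotoxic effector genes 0 passed in either direction by limma. Of 16 genes of platinum transport and detoxification 4 fell, among them the glutathione transferase Gstp1 (-0.21), and 2 fell without antibiotic array 1 or 4 or water array 1 or 3, where Gstp1 did not pass. Of 25 antioxidant genes 2 rose and 2 fell, against 4.52% and 3.34% of all genes. The risen ones were Slc7a11 and the thioredoxin reductase gene Txnrd1 (0.14). The fallen ones were the glutathione peroxidase gene Gpx1 (-0.29) and Gstp1. Without antibiotic array 4 or water array 1 or 3 the antioxidant counts were 1 and 1, without antibiotic array 1 they were 2 and 1, and without antibiotic array 2 they were 2 and 4. Of 23 immediate early genes 1 rose, near the share of all genes that rose (4.52%), and 0 fell. The number risen was 0 without antibiotic array 1 or water array 1, 2, 3 or 4 and 2 without antibiotic array 5. Of 15 glucocorticoid response genes 0 passed in either direction by limma.

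Some of the largest differences belonged to no list that moved as a whole. Amot, which encodes angiomotin, a junction protein that binds YAP, was at 8.3, 8.69, 8.69, 8.47 and 8.74 in antibiotic tumours, against 7.56, 7.64, 7.72, 7.58 and 7.09 in water tumours. It had the largest rise of the named genes, 1.06 ± 0.15 (2.08-fold, adjusted p = 0.000186, limma). Slc39a10, a zinc importer, was at 10.66, 10.51, 10.36, 10.69 and 10.36 with antibiotics and at 10.13, 9.72, 9.8, 9.82 and 10.03 with water. The groups were apart, and the difference was 0.62 ± 0.082 (1.53-fold, adjusted p = 0.000186, limma). Trmt10a, a tRNA methyltransferase gene, rose by 0.53 ± 0.077 without overlap. Agrn, which encodes the matrix proteoglycan agrin, was at 7.34, 7.43, 7.38, 7.45 and 7.61 with antibiotics and at 8.09, 7.92, 8.01, 8.24 and 7.97 with water. It fell by 0.61 ± 0.072 (1.52-fold, adjusted p = 3.54e-05, limma). Lpin1, a phosphatidate phosphatase gene, fell by 0.7 ± 0.14, and the ubiquitin ligase gene Trim7 by 0.77 ± 0.1. Among 17 circadian clock genes 3 rose and 1 fell, and the fall was lost without antibiotic array 1, 2, 3 or 4 or water array 1, 3 or 4. The largest rise was Ciart (0.48 ± 0.11), whose second row gave 0.29 without passing.

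The same contrast at 0 h, when the drug was given, and at 6 h used other arrays. At 0 h 18 genes passed (0.0903%), all 18 higher in antibiotic tumours. At 6 h 752 passed (3.77%), 226 higher (1.13%) and 526 lower (2.64%). Of the 901 genes higher at 18 h, 74% were above 0 at 0 h, against 46.8% of all genes, and 36.4% were above 0 at 6 h, against 53.9% of all genes. Of the 665 genes lower at 18 h, 76.5% were below 0 at 0 h, against 53.2% of all genes, and 77.1% at 6 h, against 46.1%. The fits share 1 estimate of each gene's spread. The direct test of the 18 h difference minus the 6 h difference called 1058 genes (5.31%), 864 more positive at 18 h (4.33%) and 194 more negative (0.973%). The test of 18 h minus 0 h called 21 genes (0.105%), 9 more positive (0.0451%) and 12 more negative (0.0602%). The number for 18 h minus 6 h was 511 or 512 if water 18 h array 1 or 3 was dropped, 575 or 678 without antibiotic 18 h array 4 or 1, 596 to 705 if water 6 h array 1, 4 or 5 was dropped, and 597 or 641 if antibiotic 6 h array 3 or 4 was. Some 6 h arrays stood apart in marker list means, set against the average over 30 arrays. Skeletal muscle markers were at 1.449 on antibiotic 6 h array 5, and hair genes at 1.799 on antibiotic 6 h array 4. Keratinocyte markers were at 1.626 on antibiotic 6 h array 1 and 1.852 on water 6 h array 1. Without antibiotic 6 h arrays 1 and 5 and water 6 h array 1, left out after seeing the data, 1308 genes passed for 18 h minus 6 h, 994 more positive and 314 more negative. The part of these cells in that count was not tested.

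**Figure D4:**
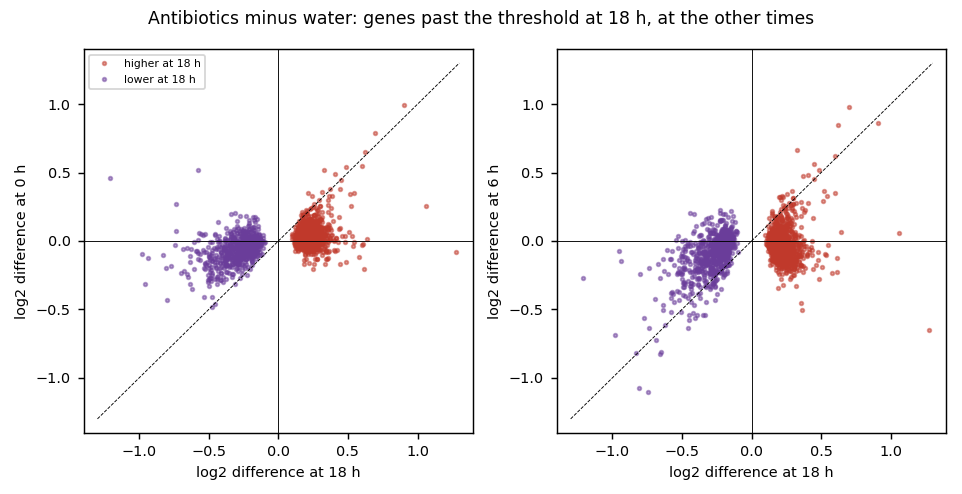
Each point is 1 of the 1566 genes that passed at 18 h, with its 18 h log2 difference (antibiotics minus water) on the horizontal axis and that at 0 h (left) or 6 h (right) on the vertical axis, and a dashed line of equality. Genes higher at 18 h are mostly above 0 at 0 h (74%) and mostly below 0 at 6 h (36.4% above).

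Gene lists with members past the threshold at 18 h were read at the other times too. Integrated stress response members were higher with antibiotics at every time, 6 of 31 at 0 h, 19 at 6 h and 16 at 18 h. Slc7a11 differed by 1 ± 0.21 at 0 h (adjusted p = 0.0552, limma), 0.86 ± 0.21 at 6 h and 0.9 ± 0.21 at 18 h, and its 18 h minus 0 h difference was -0.09 ± 0.3. Atf4 differed by 0.24, 0.28 and 0.27 at 0, 6 and 18 h and passed each time. Of this list 0 members passed for 18 h minus 6 h, by limma over all genes, and 1 for 18 h minus 0 h, Sesn2 (-1.09 ± 0.22). Sesn2 had been higher with antibiotics at 0 h by 0.51 ± 0.16 without passing (adjusted p = 0.321, limma).

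Cholesterol synthesis genes passed in 0 of 20 cases at 0 h and 0 of 20 at 6 h by limma, in either direction. For 18 h minus 6 h 10 of the 20 passed, all more positive at 18 h, against 4.33% of all genes in that direction, and for 18 h minus 0 h 1 of the 20 passed, Insig1. Insig1 differed by -0.02 at 0 h, -0.13 at 6 h and 0.61 at 18 h, and the 18 h difference exceeded that at 0 h by 0.64 ± 0.12 (adjusted p = 0.0227, limma) and that at 6 h by 0.74 ± 0.12 (adjusted p = 0.00328, limma). Of 21 heat shock genes 8 were more positive for 18 h minus 6 h and 1 for 18 h minus 0 h, Hsph1 (0.47 ± 0.087). Of 25 DNA repair genes 5 fell and 1 rose at 6 h, against 2.64% and 1.13% of all genes. For 18 h minus 6 h 10 were more positive and 1 more negative, against 4.33% and 0.973% of all genes. For 18 h minus 0 h 0 of the repair genes passed in either direction by limma. The repair list mean was 0.022, 0.054, -0.221, -0.033 and -0.077 on antibiotic 6 h arrays 1 to 5, with array 3 the lowest. On water 6 h arrays 1 to 5 it was 0.097, 0.063, 0.049, 0.074 and 0.104.

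Targets of p53 passed in 0 of 37 cases at 0 h by limma, in either direction, and at 6 h 12 fell and 1 rose, so the lower level with antibiotics was present at both times after the drug. Trp53inp1 differed by -0.2 ± 0.18 at 0 h, -1.07 ± 0.18 at 6 h and -0.81 ± 0.18 at 18 h. For 18 h minus 0 h 1 member passed, Sesn2, and 32 of 37 differences were below 0. Phlda3 was the member that differed between 6 h (0.04) and 18 h (-0.53), by -0.56 ± 0.14 (adjusted p = 0.0175, limma). Macrophage markers had medians of -0.196 at 0 h, -0.195 at 6 h and -0.359 at 18 h, and 0 of 15 passed for the change between times by limma. Gpnmb was more negative at 18 h than at 6 h by -0.88 ± 0.23 (adjusted p = 0.0241, limma). Slc39a10 differed by -0.21, -0.23 and 0.62 at 0, 6 and 18 h, and the 18 h difference exceeded that at 0 h by 0.82 ± 0.12 (adjusted p = 0.00143, limma). The 18 h difference of Agrn lay below that at 0 h by -0.6 ± 0.1 (adjusted p = 0.0158, limma).

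**Figure D5:**
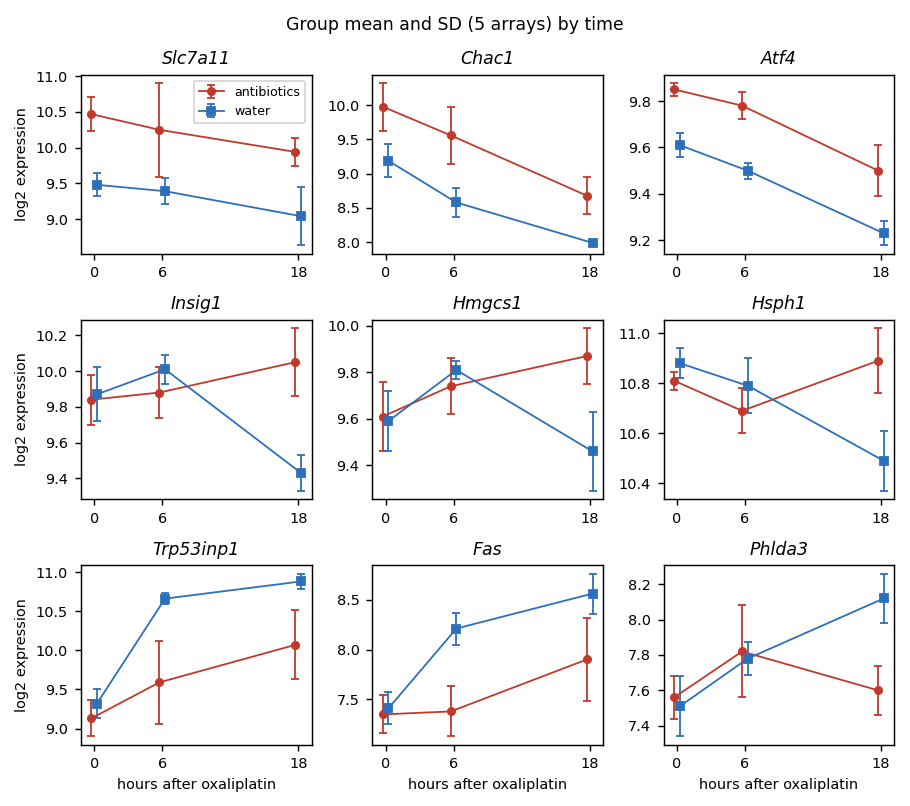
Group mean log2 expression with SD (n = 5 arrays each) at 0, 6 and 18 h after oxaliplatin in antibiotic tumours and water tumours for 9 genes. The lines of Slc7a11 lie apart at all times, and those of Insig1 part at 18 h (10.05 with antibiotics, 9.43 with water).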

How the data were processed

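Gene expression of EL4 tumours was measured on Affymetrix mouse gene arrays, 1 per sample, from 300 ng of total RNA, per the labels' protocols. Deposited values were log2 expression. Partek 6.6 is named in the submitters' processing notes without its role, and summarisation and normalisation are not given in the sources used here. Of 28853 rows per array, 21775 had 1 symbol in the platform's probe table, 1578 had several and 5500 had none. The row with the highest mean was kept for the 998 genes with more than 1 row, which left 19938 genes.

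All 30 arrays entered 1 linear model of 6 groups with limma 3.58.1 in R 4.3.3 (lmFit, eBayes; 24 residual and 3.63 prior degrees of freedom). The contrasts were antibiotics minus water at 18, 6 and 0 h, and the 18 h difference minus those at 6 h and 0 h. Tests were two-sided with Benjamini-Hochberg adjustment within each contrast, and the threshold was 0.05. On simulated data with 200 changed genes at 18 h, 93% of changes of 0.5 and 98% of changes of 1 were recovered, with 9 false calls. The simulated noise was normal and independent between genes, without shifts shared by the genes of an array. Changes below 0.5, the size of most calls here, were not simulated, so these figures do not describe their recovery or the false calls of the real data. Precision is limited by how many arrays there are, and residual SDs had a median of 0.115.

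The 48 gene lists (1051 members, 964 of them tested) and the comparison were chosen with earlier results of these data known. Named genes are the 12 largest rises and 12 largest falls that passed, up to 4 members of each list by smallest p (the 2 with the smallest p where none passed), and a set of genes named in any case. Predicted, olfactory and similar genes were counted and not named. Other genes in the text, such as further list members and Lgals3, were chosen after their values were seen. Alternatives were array medians subtracted, quantile normalisation, leaving out the dimmest 40% of genes, averaging or keeping all rows of a symbol, array weights, eBayes with trend and robust options, only the compared groups, a 1.5-fold minimum and leaving out each array.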

Additional observations from a re-analysis of the deposited data

Results flagged for a closer look

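Of 324 groups of 5 arrays examined (every gene named by the rule, at 18 h), 20 held an array whose gap to the nearest other array was above Dixon's critical value of 0.71 as a share of the group's range. Chance gives about 1 in 20 groups. Antibiotic array 1 was lowest of its group for Sfrp2 (8.68), Ifngr2 (10.5), Tgfbr3 (7.53) and Il1b (9.22). Antibiotic array 2 was lowest of its group for Cyp51 (9.44) and Gzme (5.78). Antibiotic array 3 was lowest of its group for Kif23 (10.53). Antibiotic array 5 was lowest of its group for Yars (10.65). Antibiotic array 5 was highest of its group for Ankk1 (8.5) and Mdm2 (11.27). Water array 2 was lowest of its group for Cd68 (10.25). Water array 2 was highest of its group for Mthfd2 (10.81), Nars (11.54) and Elovl6 (11.08). Water array 4 was lowest of its group for Ramp2 (7.51). Water array 4 was highest of its group for Ccl12 (7.82), Krt17 (8.59) and Myd88 (10.44). Water array 5 was lowest of its group for Amot (7.09). Water array 5 was highest of its group for Ppbp (10.46).

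The antibiotic effect differed between 18 h and another time, by the limma test of the difference, for some genes named by the rule. The 18 h difference was more positive than that at 0 h for Slc39a10 (0.82), Insig1 (0.64), Trmt10a (0.57), Hsph1 (0.47) and Wee1 (0.35), and more negative for Sesn2 (-1.09) and Agrn (-0.6). It was more positive than that at 6 h for Amot (1), Slc39a10 (0.84), Insig1 (0.74), Trmt10a (0.64), Exd2 (0.62), Iars (0.25), Hsph1 (0.5), Ptges3 (0.35), Hspa4 (0.16), Cyp51 (0.56), Msmo1 (0.43), Hmgcs1 (0.49), Elovl6 (0.34), Wdr75 (0.24), Eif4e (0.23), Cdc6 (0.3), Orc1 (0.35), Mcm4 (0.31), Kif23 (0.25), Ndc80 (0.31), Chek1 (0.36), Rad51c (0.53), Blm (0.41), Polh (0.36), Txnrd1 (0.23), Clock (0.32), Nr1d2 (0.31) and Slc39a6 (0.21). It was more negative than that at 6 h for Gpnmb (-0.88), Phlda3 (-0.56), Cyba (-0.33), Gstp1 (-0.37), Slc39a11 (-0.31), Cd3d (-0.38) and Agrn (-0.54).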

How the results depend on the processing

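The 1566 genes of the 18 h comparison became 600 (296 higher, 304 lower) when only the 18 h arrays were fitted, 35 (10 and 25) with a 1.5-fold minimum, and 771 to 1686 when 1 array was left out. Array medians subtracted gave 1870 (1458 and 412), so 78% of calls were higher against 57.5%. Chosen after seeing the data, leaving out antibiotic array 1 and water array 4 (highest hair genes) gave 561 (366 and 195), and leaving out antibiotic array 1 and water array 5 (lowest and highest for macrophage markers) gave 1039 (556 and 483). The other 6 settings gave 1535 to 2149.

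The 21 genes for 18 h minus 0 h became 8 (5 more positive, 3 more negative) with array medians subtracted, 121 (65 and 56) with quantile normalisation, 77 without dim genes, 121 (36 and 85) with array weights, 67 with trend and robust options, 12 with only those groups and 5 (3 and 2) with a 1.5-fold minimum, and 2 to 119 with 1 array left out. It was 2 without antibiotic 18 h array 1 or water 0 h array 4, 3 without antibiotic 18 h array 4 or water 18 h array 3, 6 to 13 without antibiotic 0 h array 2, 4 or 5 or water 0 h array 1 or 2, 72 without water 18 h array 5 and 119 without antibiotic 18 h array 5. The 1058 for 18 h minus 6 h became 1598 without dim genes, 573 with only those groups, 38 with a 1.5-fold minimum and 511 to 1538 with 1 array left out. With quantile normalisation 70.7% of these calls were more positive, against 81.7%. The causes were not tested, beyond the fewer arrays or genes of some settings.

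Of 125 named genes that passed, 52 kept the call in all 19 alternatives other than the fold minimum and keeping every row of a symbol, and 0 changed sign. Signs turned for genes that had not passed. With 1 array left out Il1b ranged from -0.11 to 0.31, Ptgs2 from -0.08 to 0.45, Il12b from -0.05 to 0.1, Cxcl10 from -0.59 to 0.09 and Nos2 from -0.34 to 0. Without the arrays with the highest hair genes Cxcl10 was 0.41, Il12b -0.02 and Cd274 0.02. Without the macrophage extremes Cxcl10 was 0.12, Nos2 0.15, Krt17 -0.03 and Tlr4 0.

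No paired analysis was possible because the labels give no replicate numbers shared between groups.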

Other observations

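Lysosomal protease genes were examined after the values were seen, so their counts are a description. Of 17 cathepsin genes, which encode proteases of the lysosome, 7 fell and 0 rose at 18 h, against 3.34% of all genes lower. Of the 17 differences 16 were below 0 with a median of -0.207. Ctsd, the aspartic protease cathepsin D, was at 11.07, 11.18, 11.11, 11.29 and 11.33 in antibiotic tumours, against 11.75, 11.57, 11.68, 11.73 and 11.67 in water tumours. The groups did not overlap, and the difference was -0.48 ± 0.077 (adjusted p = 0.000565, limma). Ctsa, a carboxypeptidase that protects other lysosomal enzymes, fell by 0.51 ± 0.099 and Ctsb by 0.37 ± 0.064, also without overlap. Of 21 subunit genes of the vacuolar ATPase, the proton pump of the lysosome, 3 fell and 0 rose, against 3.34% of all genes lower. Atp6v0d2, an isoform found in macrophages and osteoclasts, was at 8.32, 8.49, 8.19, 8.66 and 8.59 with antibiotics and at 9.07, 8.67, 9.09, 9.3 and 9.27 with water. It fell by 0.63 ± 0.13 (adjusted p = 0.00445, limma). Macrophage marker means lay between -0.39 and 0.17 on the antibiotic arrays and between 0.11 and 0.45 on the water arrays, and their part in these differences was not tested.

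Of 44 collagen genes, also chosen after the values were seen, 3 fell, Col4a2, Col6a1 and Col6a2, against 3.34% of all genes. Those of Col4a2 (adjusted p = 0.0493, limma) and Col6a2 (adjusted p = 0.0462, limma) were close to the threshold. The Col6a2 call was lost in 11 of 19 alternatives and that of Col6a1 in 5. Of the 44 collagen differences 41 were below 0 with a median of -0.071. Fibroblast marker means ranged from -0.31 to 0.24 with antibiotics and from 0.06 to 0.32 with water. Among the keratin-associated protein genes 41 of 44 differences were above 0 with a median of 0.26, and 0 passed in either direction by limma.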
